A study of Mus musculus with 11 samples.

Results

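The genes of the constitutive proteasome were followed in whole pancreas of young mice. Members were the genes whose symbol begins with Psma, Psmb, Psmc, Psmd or Psme and a digit, with Psmb8, Psmb9 and Psmb10 left out as the inducible immunoproteasome subunits. The rule found 41 genes of the 18194 that the arrays measure by a probe set of 1 gene. All 41 lay above the limit for dim signal of 6.87 (lowest member mean 7.24) and were tested among 15897 genes. The probe set of highest mean signal stood for each gene.

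The members comprise 7 alpha and 7 beta subunits of the core, 6 ATPases and 11 non-ATPase subunits of the regulatory particle, 3 chaperones that help assemble its base, and 3 activators. Psma8 and Psmb11 are counterparts of core subunits known from testis and thymus. Psmc3ip, a meiotic recombination protein, and Psme3ip1 carry a matching symbol and are no subunits. Psme2, the partner of the activator Psme1, was left out because its probe set also carries Psme2b, and it was not analysed here.

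The proteasome degrades proteins that have been tagged with ubiquitin. Rings of alpha subunits gate a chamber of beta subunits, of which Psmb5, Psmb6 and Psmb7 hold the protease sites, and the regulatory particle recognises, deubiquitinates and unfolds the substrate. The acinar cells that fill the pancreas make large amounts of secretory protein, and misfolded protein exported from their endoplasmic reticulum is degraded by the proteasome.

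The animals were female Balb/C offspring aged 30 days. Their dams ate a diet with 20% protein (control) or an isocaloric diet with 8% protein (low protein) during pregnancy and the control diet from birth on. Pups received streptozotocin (STZ, a toxin taken up by insulin-producing β cells, 35 mg per kg) or vehicle (sham) each day from day 1 to day 5 of life. The 4 groups held 3 arrays each, except control STZ, which held 2 (replicates 1 and 3). The labels call the arrays biological replicates and name no dam or litter, so a difference between diets cannot be told apart from one between litters.

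Values are log2 signals of Affymetrix probe sets, and array medians over all 45101 probe sets ran from 7.92 to 7.97. A level can be compared between arrays for 1 gene but not between genes. Low protein STZ 1 and control sham 1 lay at the ends of the first principal component, which carried 38.4% of the variance. Some medians and counts are given below with and without low protein STZ 1 or control STZ 1. Other values, among them many single-gene differences and subgroup medians, are given with all arrays only and may rest on these or other single arrays. In whole tissue, fewer cells of a type and less RNA per cell cannot be told apart.

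The diet comparison asks whether protein restriction in the womb leaves a trace in the offspring pancreas at 30 days. Averaged over sham and STZ, 38 of the 41 proteasome genes had a lower mean signal in low protein than in control offspring, with a median log2 difference of -0.22. Among the 4 groups of particle subunits, core alpha subunits had the lowest median (-0.39), followed by core beta subunits (-0.31), ATPases (-0.22) and non-ATPase subunits (-0.18). In limma with Benjamini-Hochberg adjustment over all 15897 genes, 0 members passed 0.05, and 0.0% of all genes did. At an unadjusted p under 0.05, 19 members were lower and 0 higher, where 11.7% of all genes were lower and 3.65% higher. The smallest adjusted p of a member in limma with Benjamini-Hochberg adjustment was 0.0585, for Psmd6.

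**Figure D1:**
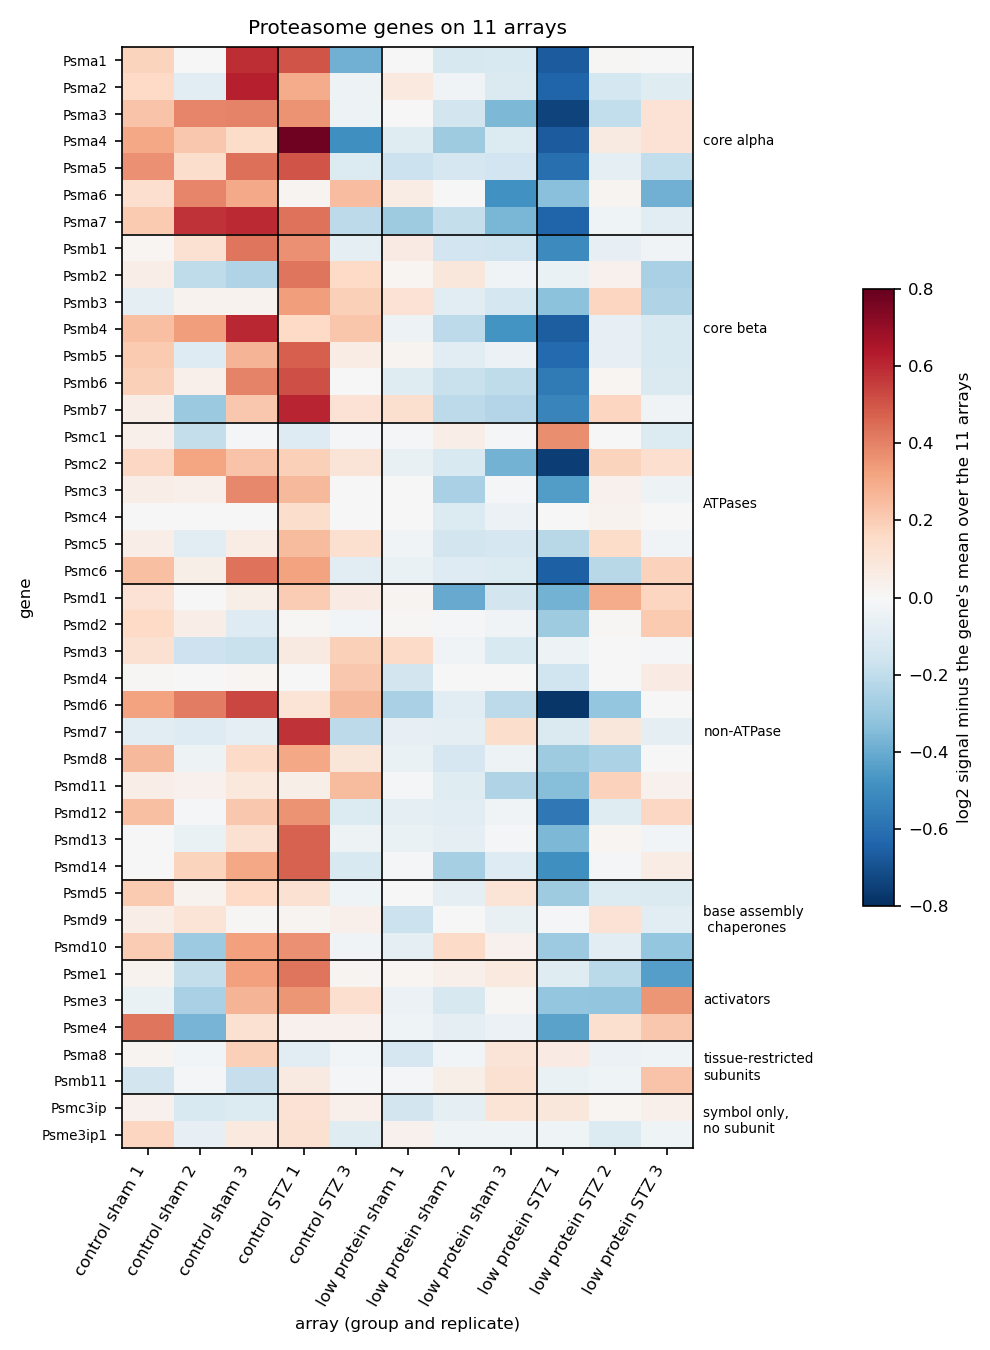
Log2 signal of the 41 proteasome genes (rows, grouped by role) on the 11 arrays (columns), shown as the deviation of each array from the gene's mean over all arrays. Most rows are red in control sham 1, control sham 3 and control STZ 1, control sham 2, control STZ 3, low protein STZ 2 and low protein STZ 3 are mixed, the low protein sham columns are mostly pale blue, low protein STZ 1 is the bluest, and Psmc1 runs the other way.

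The mean log2 signal over the 41 members summarises each array. In control sham it was 9.88, 9.78 and 9.96, and in control STZ 10.03 and 9.77. In low protein sham it was 9.72, 9.67 and 9.66, and in low protein STZ 9.41, 9.74 and 9.74. The 6 low protein arrays thus lay below the 5 control arrays, by a small margin between control STZ 3 and low protein STZ 2 and 3. Group means were 9.87 ± 0.09 (SD, n = 3) in control sham and 9.90 ± 0.18 (SD, n = 2) in control STZ. They were 9.68 ± 0.04 (SD, n = 3) in low protein sham and 9.63 ± 0.19 (SD, n = 3) in low protein STZ. Low protein STZ 1 was the lowest array for 26 of the 41 members, and control STZ 1 was the highest for 17.

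Psmd6, a subunit of the lid of the regulatory particle, had the smallest p of the members. Its log2 signal was 11.83, 11.91 and 12.04 in control sham and 11.62 and 11.77 in control STZ. It was 11.25, 11.42 and 11.30 in low protein sham and 10.73, 11.20 and 11.50 in low protein STZ. All 6 low protein arrays were below all 5 control arrays. The low protein signal was 1.49-fold lower averaged over the injections (log2 difference -0.58 ± 0.12 SE, limma with Benjamini-Hochberg adjusted p = 0.0585).

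Psmb4, a beta subunit without a protease site, showed the same separation. Its log2 signal was 11.10, 11.19 and 11.46 in control sham, 11.02 and 11.08 in control STZ, 10.81, 10.65 and 10.38 in low protein sham, and 10.19, 10.79 and 10.73 in low protein STZ. The lowest control array stood above the highest low protein array. The difference was -0.55 ± 0.12 (SE), or 1.47-fold lower, with a limma Benjamini-Hochberg adjusted p of 0.0685. A second probe set of Psmb4 differed by -0.25, and its separation by diet was not examined. Psmd6 and Psmb4 were the 2 members whose low protein and control arrays did not overlap across both injections, where 2.47% of all genes were separated in that direction. No member was separated in the higher direction, where 0.679% of all genes were.

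Psma7 and Psma5, both in the alpha ring that gates the chamber, came next. Psma7 measured 10.34, 10.71 and 10.73 in control sham, 10.56 and 9.93 in control STZ, 9.85, 9.94 and 9.76 in low protein sham, and 9.49, 10.10 and 10.04 in low protein STZ. The sham groups were apart, while control STZ 3 lay among the low protein arrays. Averaged over the injections Psma7 differed by -0.55 ± 0.14 (SE; limma, Benjamini-Hochberg adjusted p = 0.107).

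Psma5 measured 11.26, 11.03 and 11.33 in control sham and 11.40 and 10.78 in control STZ. It measured 10.72, 10.76 and 10.74 in low protein sham and 10.29, 10.82 and 10.70 in low protein STZ. Only control STZ 3, at 10.78, reached into the low protein range. Its difference was -0.48 ± 0.13 (SE; limma, Benjamini-Hochberg adjusted p = 0.108). The other 5 alpha subunits, Psma1, Psma2, Psma3, Psma4 and Psma6, differed by -0.31 to -0.47, and none had a higher mean in low protein offspring.

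**Figure D2:**
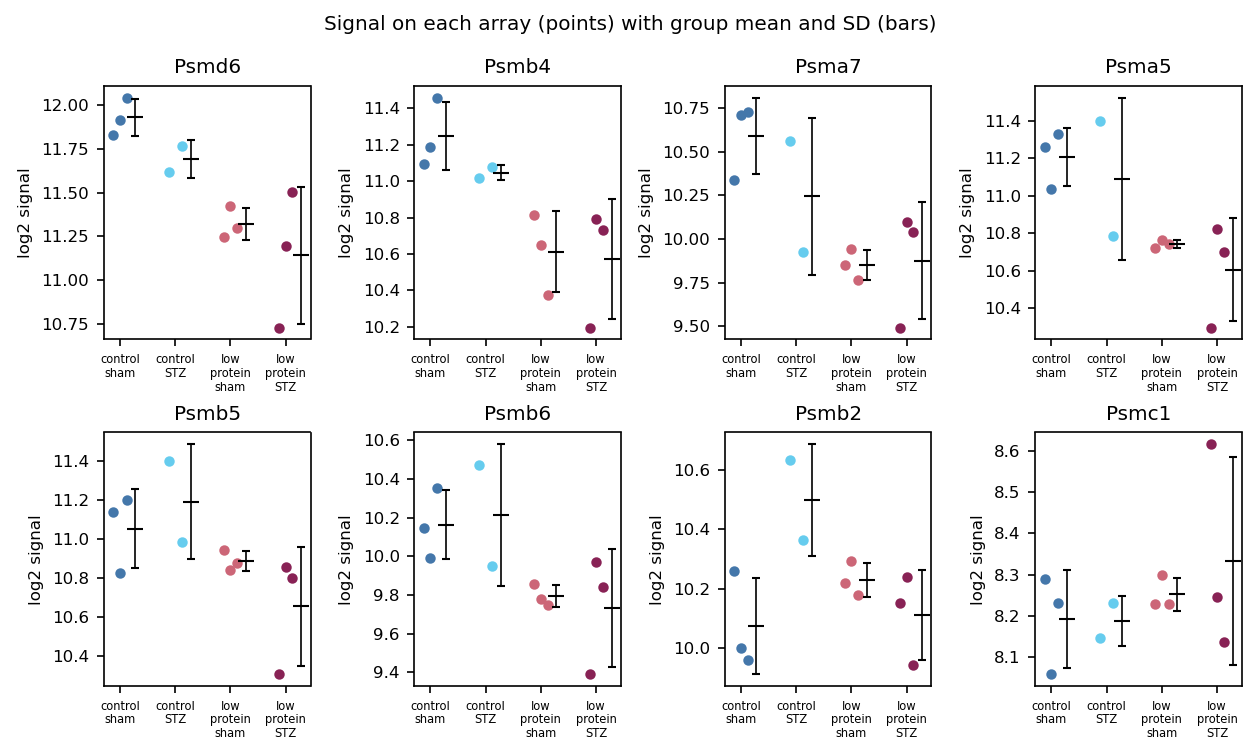
Log2 signal (vertical axis, a separate scale for each gene) of 8 proteasome genes on each array (points) in the 4 groups, with group mean and SD (bars). Low protein points of Psmd6 and Psmb4 lie under every control point, Psma7 and Psma5 are separated in sham arrays, Psmb2 is highest in control STZ, and Psmc1 is level apart from low protein STZ 1.

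Among the subunits with protease sites, Psmb6 measured 10.15, 9.99 and 10.35 in control sham, 10.47 and 9.95 in control STZ, 9.86, 9.78 and 9.75 in low protein sham, and 9.39, 9.97 and 9.84 in low protein STZ. The sham groups did not overlap, and the STZ groups overlapped narrowly, through control STZ 3 and low protein STZ 2. Averaged over the injections Psmb6 differed by -0.42 ± 0.13 (SE; limma, Benjamini-Hochberg adjusted p = 0.147). Psmb5 measured 11.14, 10.82 and 11.20 in control sham, 11.40 and 10.98 in control STZ, 10.95, 10.84 and 10.88 in low protein sham, and 10.31, 10.86 and 10.80 in low protein STZ. Its sham groups overlapped through control sham 2, and its STZ groups did not overlap. The difference was -0.35 ± 0.12 (SE; limma, Benjamini-Hochberg adjusted p = 0.204).

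Psmb7 was the most spread of these 3 subunits. It measured 10.42, 10.07 and 10.59 in control sham, 10.98 and 10.49 in control STZ, 10.50, 10.16 and 10.13 in low protein sham, and 9.84, 10.54 and 10.34 in low protein STZ. Both pairs of groups overlapped, and the difference was -0.29 ± 0.15 (SE; limma, Benjamini-Hochberg adjusted p = 0.395). The remaining beta subunits Psmb1, Psmb2 and Psmb3, which hold no protease site, differed by -0.31, -0.12 and -0.22.

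The ATPases form the ring that unfolds substrates and opens the core. Psmc2, Psmc3 and Psmc6 differed by -0.36, -0.27 and -0.34 averaged over the injections, and Psmc5 by -0.17. Psmc4 differed by -0.06 on the probe set used, with a signal within 8.93 to 9.19 on every array. That probe set read an identical 9.04 on several arrays, among them all of control sham, so its narrow range may not show a steady transcript. A second Psmc4 probe set of lower mean signal (8.27) differed by -0.22. Psmc1 was the exception on the probe set used, with a difference of 0.10 ± 0.09 (SE; limma, Benjamini-Hochberg adjusted p = 0.617). It measured 8.29, 8.06 and 8.23 in control sham, 8.15 and 8.23 in control STZ, 8.23, 8.30 and 8.23 in low protein sham, and 8.62, 8.25 and 8.14 in low protein STZ. Its highest array was low protein STZ 1, the array on which most other members were lowest. A second Psmc1 probe set of nearly equal mean signal (8.20, against 8.25 for the one used) differed by -0.03.

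All 11 non-ATPase subunits had a lower mean in low protein offspring, from -0.58 for Psmd6 to -0.03 for Psmd2, a scaffold of the base. Psmd8, of the lid, differed by -0.29 ± 0.08 (SE; limma, Benjamini-Hochberg adjusted p = 0.113). Psmd14, the deubiquitinase that removes ubiquitin from the substrate, differed by -0.31, and the ubiquitin receptor Psmd4 by -0.10. The lid subunits Psmd11, Psmd12 and Psmd13 differed by -0.18, -0.25 and -0.20. The other Psmd11 probe sets above the limit for dim signal differed less, by -0.08 to -0.002. Psmd1, a scaffold of the base, differed by -0.17, and the lid subunits Psmd3 and Psmd7 by -0.04 and -0.07.

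The base assembly chaperones Psmd5, Psmd9 and Psmd10 differed by -0.17, -0.08 and -0.22. Of the activators, which open the core without ATP, Psme1 differed by -0.24, the nuclear Psme3 by -0.19 and Psme4 by -0.08. The thymic Psmb11 and the testis subunit Psma8 differed by 0.09 and -0.02. The members that are no subunits, Psmc3ip and Psme3ip1, differed by 0.00 and -0.07. Of the 41 members, Psmb11, Psmc1 and Psmc3ip were the 3 without a lower mean in low protein offspring.

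The promoters of 4 of these genes are printed because the members shifted together across arrays and because transcription factors of proteasome genes are among the pathway genes described below. They come from RefSeq on GRCm38.p6, each 300 bases long, from 250 before to 50 after the annotated start, written 5′ to 3′ on the gene's strand. Capitals mark TGACNNNGC, the core of the antioxidant response element bound by Nfe2l1 and Nfe2l2, or CCAAT, the box bound by the factor NF-Y, each searched on both strands. Psmb5 lies at chr14:54617946-54618245 on the minus strand and Psmb6 at chr11:70525107-70525406 on the plus strand. Psma7 lies at chr2:180042415-180042714 and Psmd6 at chr14:14120896-14121195, both on the minus strand.
Psmb5: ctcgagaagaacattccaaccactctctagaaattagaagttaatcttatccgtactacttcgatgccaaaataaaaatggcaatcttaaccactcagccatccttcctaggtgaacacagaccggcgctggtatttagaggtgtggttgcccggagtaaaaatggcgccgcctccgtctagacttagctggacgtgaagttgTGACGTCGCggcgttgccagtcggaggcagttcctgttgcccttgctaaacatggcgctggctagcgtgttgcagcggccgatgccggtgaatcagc
Psmb6: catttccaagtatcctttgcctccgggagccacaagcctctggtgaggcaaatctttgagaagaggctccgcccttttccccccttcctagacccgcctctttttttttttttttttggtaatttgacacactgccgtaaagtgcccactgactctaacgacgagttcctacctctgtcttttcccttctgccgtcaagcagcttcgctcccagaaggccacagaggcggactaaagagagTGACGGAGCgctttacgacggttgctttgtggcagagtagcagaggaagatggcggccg
Psma7: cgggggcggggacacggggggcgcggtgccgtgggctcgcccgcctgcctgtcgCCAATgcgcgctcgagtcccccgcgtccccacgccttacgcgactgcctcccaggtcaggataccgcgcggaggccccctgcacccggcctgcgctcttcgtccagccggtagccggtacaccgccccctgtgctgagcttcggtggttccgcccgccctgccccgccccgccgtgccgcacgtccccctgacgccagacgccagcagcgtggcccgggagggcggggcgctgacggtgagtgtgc
Psmd6: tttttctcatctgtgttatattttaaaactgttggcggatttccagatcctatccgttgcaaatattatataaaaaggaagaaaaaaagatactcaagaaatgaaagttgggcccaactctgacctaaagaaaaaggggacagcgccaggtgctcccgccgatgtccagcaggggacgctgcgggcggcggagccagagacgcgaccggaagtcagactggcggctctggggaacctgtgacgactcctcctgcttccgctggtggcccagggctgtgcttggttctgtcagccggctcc
The first base of TGACGTCGC in Psmb5 stood at -47 from the start, and that of TGACGGAGC in Psmb6 at -9. Psma7 held a CCAAT at -196, and neither motif was in the windows of Psmd6, Psmb4 or Psma5.

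Promoters were listed for 34 of the 41 members, in 37 windows. TGACNNNGC was present in 6 of them (16.2%), those of Psmb5, Psmb6, Psmc6, Psmd9, Psmd12 and Psme4, and in 12.4% of all 32851 promoters of that length. CCAAT was present in 15 member windows (40.5%) and in 37.4% of all promoters. No member window held both, against 4.37% of all promoters. The median diet difference was -0.29 for the 6 genes with TGACNNNGC and -0.22 for the 28 without it, and the values of the 6 ran from -0.42 to -0.08. For CCAAT it was -0.22 for 15 genes with the box and -0.24 for 19 without it. Both shares were near those of all promoters, and the genes with and without a motif covered overlapping ranges.

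The members were next set against other genes. Over both injections 38 of 41 members were lower in low protein offspring, while 62.2% of all genes tested were lower, with a median of -0.03. Of 10089 other genes with a mean signal between 8.25 and 11.21, the span of the middle 80% of the members, 65.9% were lower and the median was -0.04. Rescaling the arrays by cyclic loess, which evens out intensity-dependent shifts between arrays, brought that median to -0.004 and the members' median to -0.16, with 34 of 41 lower where 51.5% of all genes were. Under that scaling 8 members were lower at an unadjusted p under 0.05 and 0 higher, where 6.94% of all genes were lower and 6.46% higher.

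**Figure D3:**
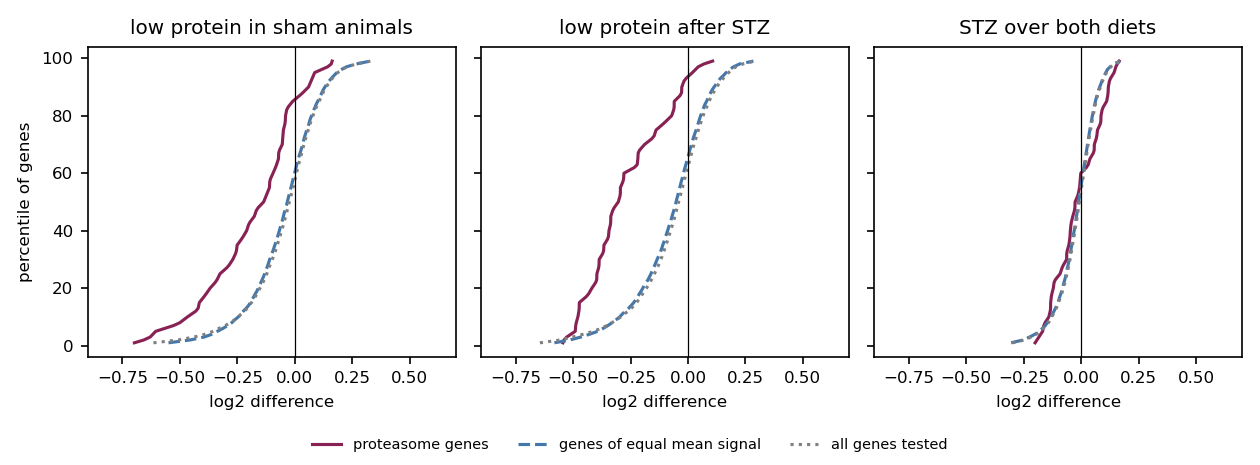
Cumulative distributions of log2 differences (horizontal axis) for the 41 proteasome genes, 10089 genes of equal mean signal and all 15897 genes tested, in 3 comparisons, with percentile of genes on the vertical axis. In both diet comparisons the proteasome curve lies to the left of the others through most of its length, with medians of -0.14 and -0.30, and in STZ over both diets the curves lie close together.

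In sham offspring alone, 35 of 41 members were lower in low protein than in control animals, with a median of -0.14, and 57.7% of all genes were lower. At an unadjusted p under 0.05, 6 members were lower, where 7.22% of all genes were, and 0 were higher, where 3.2% were. The groups did not overlap for 15 members, each lower in low protein, where 10.2% of all genes were separated in that direction and 5.57% in the other. None passed adjustment in limma (smallest Benjamini-Hochberg adjusted p = 0.213, 0.0% of all genes called). All 7 alpha subunits were lower, 5 of them without overlap, with a median of -0.42. Of the beta subunits, 6 of 7 were lower, 2 of them without overlap, with a median of -0.17.

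The largest difference in sham offspring was that of Psma7 (-0.74 ± 0.19 SE, 1.67-fold lower). Psmb4 followed (-0.64 ± 0.17), then Psmd6 (-0.61 ± 0.16), Psma3 (-0.51 ± 0.19) and Psma5 (-0.47 ± 0.17). These values are those of the probe sets used. In sham offspring the second probe sets of Psma7, Psmb4 and Psmd6 differed less, by -0.45, -0.24 and -0.29. That of Psma3 differed by -0.03, and the brighter other set of Psma5 by -0.41. The members with a higher mean and the smallest p were Psmb11 (0.17 ± 0.09), Psmb2 (0.16 ± 0.11), Psmd3 (0.07 ± 0.10) and Psmd7 (0.09 ± 0.16), all with overlapping groups. Of the protease subunits, Psmb6 differed by -0.37, Psmb5 by -0.17 and Psmb7 by -0.10. Under cyclic loess the members' median was -0.05 with 32 of 41 lower, against -0.004 and 51.1% lower for genes of equal signal.

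After STZ, 38 of 41 members were lower in low protein than in control animals, with a median of -0.30, and 62.3% of all genes were lower. At an unadjusted p under 0.05, 12 members were lower, where 7.79% of all genes were, and 0 were higher, where 1.7% were. The groups did not overlap for 11 members, each lower in low protein, against 16.8% of all genes in that direction and 7.48% in the other. None passed adjustment in limma (smallest Benjamini-Hochberg adjusted p = 0.376, 0.0% of all genes called). The 7 beta subunits had the lowest median here (-0.47), 5 of them at an unadjusted p under 0.05, and the alpha subunits had a median of -0.37.

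Psmd8 and Psmb2 had the smallest p after STZ, with differences of -0.39 ± 0.12 and -0.39 ± 0.12 (SE). Psmd6 differed by -0.55 ± 0.18, Psmb5 by -0.54 ± 0.18, Psmb7 by -0.49 ± 0.23, Psmb6 by -0.48 ± 0.19 and Psmb3 by -0.40 ± 0.14. The activator Psme1 differed by -0.47 ± 0.16 and the chaperone Psmd10 by -0.40 ± 0.18. Their mean signals were low, at 7.96 and 7.24, where array medians over all probe sets ran from 7.92 to 7.97. Psmc1, Psma8 and Psmb11 were the members with a higher mean (0.14, 0.05 and 0.02). These values rest on few arrays: the median was -0.15 without control STZ 1, -0.15 without low protein STZ 1, -0.47 without control STZ 3, and -0.02 when control STZ 1 and low protein STZ 1 were both left out. In that last case 25 of 41 members were lower, where 56.7% of all genes were. At an unadjusted p under 0.05, 1 member was then lower and 1 higher, where 3.21% of all genes were lower and 1.09% higher.

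Over both injections, leaving out both arrays gave a median of -0.09 with 33 of 41 members lower, where 59.4% of all genes were. At an unadjusted p under 0.05, 8 members were then lower, where 6.65% of all genes were, and 0 higher, where 2.02% were. Leaving out control STZ 1 alone gave a median of -0.14.

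**Figure D4:**
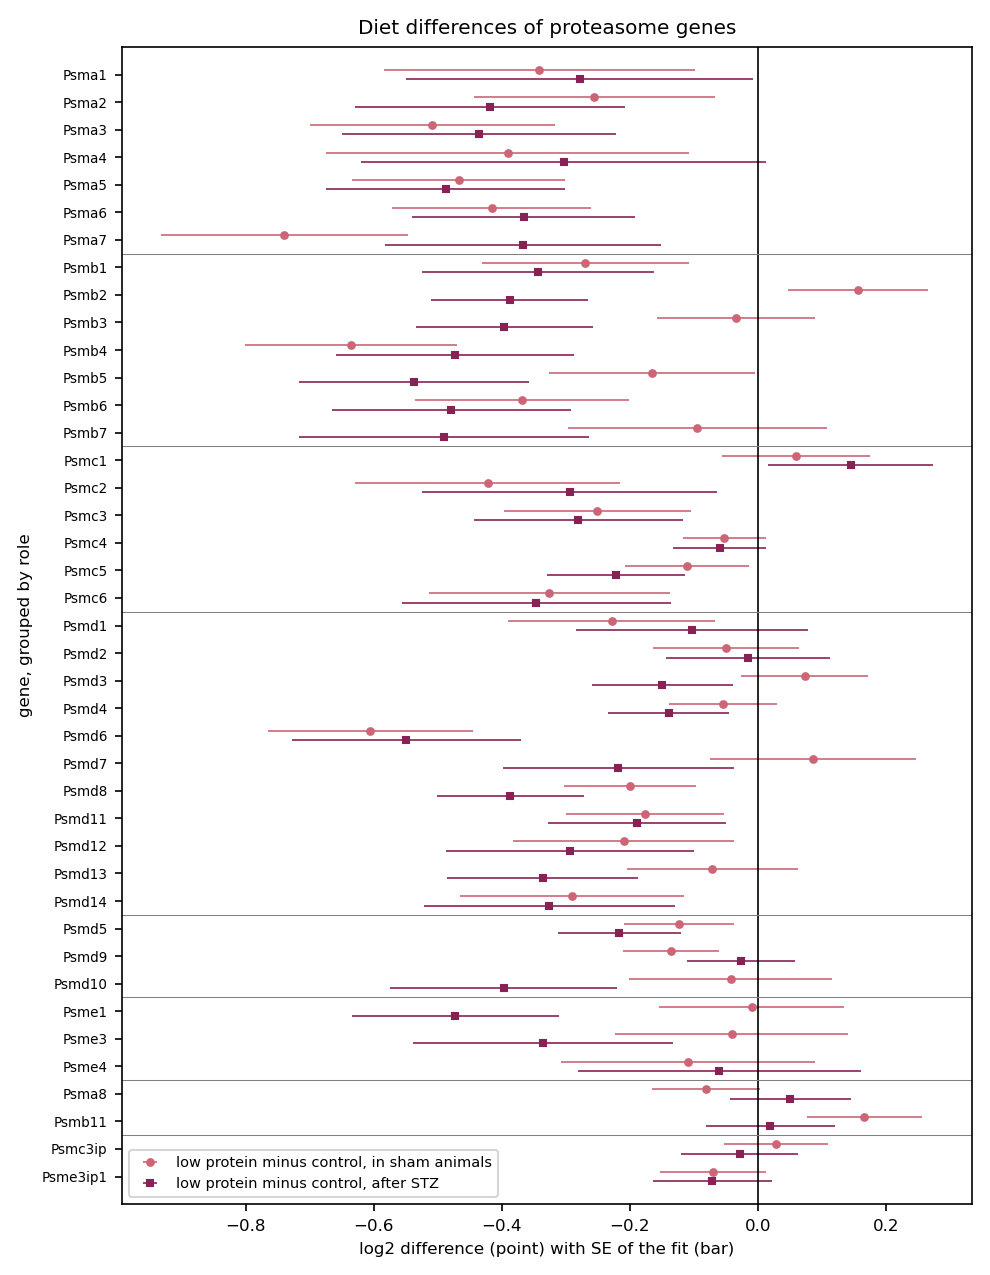
Log2 difference between low protein and control offspring (horizontal axis; points, with the SE of the fit as bars) for each of the 41 genes, in sham animals (circles) and after STZ (squares). Alpha subunits lie left of 0 in both, while Psmb2, Psmb3, Psmb5, Psmb7, Psmd10 and Psme1 lie between -0.17 and 0.16 in sham animals and further left after STZ.

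Whether the diet difference changed with the injection was tested by setting the STZ effect in low protein offspring against that in control offspring. The members' median was -0.04, with 27 of 41 lower, against 55.0% of all genes. Psmb2 was the 1 member at an unadjusted p under 0.05 in the lower direction (2.21% of all genes), and 0 were higher (1.35%). Its difference of effects was -0.54 ± 0.16 (SE; limma, Benjamini-Hochberg adjusted p = 1.00, 0.0% of all genes called). Psme1 (-0.46 ± 0.22), Psmb7 (-0.40 ± 0.30), Psmb5 (-0.37 ± 0.24) and Psmb3 (-0.36 ± 0.19) followed in the lower direction, and Psmb6 was at -0.11 ± 0.25. Among the members with a higher value, the smallest p were those of Psma7 (0.37 ± 0.29), Psma8 (0.13 ± 0.13), Psmd9 (0.11 ± 0.11) and Psmb4 (0.16 ± 0.25). Beta subunits had a median of -0.36 and alpha subunits 0.06, and the members' median became 0.11 without control STZ 1 and low protein STZ 1.

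STZ against sham in control offspring gave 21 of 41 members lower (49.3% of all genes) and a median of -0.004. The 2 control STZ arrays differed here: without control STZ 3 the median was 0.15 with 13 of 41 lower (48.1% of all genes), and without control STZ 1 it was -0.07 with 29 lower (52% of all genes). All 7 alpha subunits had a lower mean after STZ (median -0.14), while 5 of 7 beta subunits had a higher one (median 0.14). Each direction rested on 1 array. The mean over alpha subunits was 10.46 to 10.68 in control sham, 10.65 on control STZ 1 and 10.09 on control STZ 3. Over beta subunits it was 10.32 to 10.58 in control sham, 10.75 on control STZ 1 and 10.43 on control STZ 3. In limma 0 members passed (smallest Benjamini-Hochberg adjusted p = 0.999, 0.0% of all genes called). At an unadjusted p under 0.05, 1 member was higher (1.92% of all genes) and 0 lower (2.13%). The groups did not overlap for 4 members with higher signal (8.64% of all genes) and 2 with lower signal (7.72%).

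Psmb2, a beta subunit of the core, was that 1 member. It measured 10.26, 10.00 and 9.96 in control sham, 10.63 and 10.36 in control STZ, 10.22, 10.29 and 10.18 in low protein sham, and 10.15, 10.24 and 9.94 in low protein STZ. Both control STZ arrays were above the other 9. The difference from control sham was 0.42 ± 0.12 (SE; limma, Benjamini-Hochberg adjusted p = 0.999).

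Psmb3 (0.27 ± 0.14), Psmd3 (0.20 ± 0.11) and Psmc5 (0.18 ± 0.11) were the next members with a higher mean after STZ in control offspring. Psma7 (-0.35 ± 0.22), Psmd6 (-0.24 ± 0.18), Psma8 (-0.12 ± 0.09) and Psmb4 (-0.20 ± 0.19) had the smallest p among the lower ones. The protease subunits Psmb5, Psmb6 and Psmb7 differed by 0.14, 0.05 and 0.37, each with overlapping groups.

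In low protein offspring, STZ against sham gave 28 of 41 members lower (57.6% of all genes), with a median of -0.04. On the mean over the members, the lower direction rested on low protein STZ 1, at 9.41. Low protein STZ 2 and 3, both at 9.74, lay above all 3 low protein sham arrays (9.72, 9.67 and 9.66). No member reached an unadjusted p under 0.05 in either direction, where 1.91% of all genes were lower and 0.679% higher, and none passed adjustment in limma (0.0% of all genes called). The groups did not overlap for 3 members, Psmd5, Psme1 and Psmd10, with lower signal after STZ (5.14% of all genes), and for 0 in the other direction (2.6%). These differed by -0.18 ± 0.09, -0.29 ± 0.14 and -0.27 ± 0.16 (SE). Psmb5 was next (-0.23 ± 0.16), and Psmb6 and Psmb7 differed by -0.06 and -0.02. Psmd1 (0.21 ± 0.16), Psmd9 (0.08 ± 0.08), Psmc3ip (0.09 ± 0.08) and Psmc4 (0.06 ± 0.06) had a higher mean.

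Averaged over both diets, the STZ difference had a median of -0.03, with 25 of 41 members lower (54.1% of all genes). No member reached an unadjusted p under 0.05 (2.38% of all genes lower, 0.856% higher) or was separated (0.0692% lower, 0.0629% higher), and none passed adjustment in limma (0.0% of all genes called). Psmc3ip (0.12 ± 0.06), Psmb2 (0.15 ± 0.08), Psmc5 (0.12 ± 0.07) and Psmc4 (0.07 ± 0.05) had the smallest p among the higher members. Psmd5 (-0.13 ± 0.06), Psmd6 (-0.21 ± 0.12), Psma2 (-0.19 ± 0.14) and Psma7 (-0.16 ± 0.14) had it among the lower. Psmb5, Psmb6 and Psmb7 differed by -0.05, -0.01 and 0.17. A test of any difference among the 4 groups gave 0 members past adjustment in limma (smallest Benjamini-Hochberg adjusted p = 0.197, 0.0% of all genes called) and 10 at an unadjusted p under 0.05, where 9.89% of all genes were.

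The members also varied together within groups. Over the 820 pairs of members, the correlation of the arrays' deviations from their group means had a median of 0.39, against 0.03 over pairs of genes of equal signal. These are descriptions over 11 arrays, and the genes of a pair share each array's RNA and scaling. Pairs within the alpha ring had a median of 0.74, within the beta ring 0.66, and between the rings 0.70. Pairs of ATPases had 0.52 and pairs of non-ATPase subunits 0.41.

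Psmd12 (0.70), Psmb5 (0.68) and Psmb6 (0.67) had the highest median correlation with the other members, and Psmc1 (-0.47) the lowest. Without the control STZ arrays and low protein STZ 1, the median over members was 0.16, and over genes of equal signal 0.02. The beta ring then kept 0.45, and the alpha ring had 0.10. The median of the alpha ring was thus larger with those 3 arrays than without them.

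Of the members, 22 had more than 1 probe set, with 46 other probe sets in all, and 34 of these were above the limit for dim signal. Low protein offspring had the lower mean on 27 of the 34, and 25 had the sign of the probe set used. Of all genes tested, each on 1 probe set, 62.2% were lower, and the share over the other probe sets of all genes was not computed. The second probe sets of the leading members differed by -0.41 (Psmd6), -0.25 (Psmb4), -0.42 (Psma7) and, for the brighter of its other sets, -0.38 (Psma5). The 9 probe sets of opposite sign belonged to Psma3, Psmb1, Psmc1, Psmc3ip, Psmd2, Psmd9, Psme3 (both other sets) and Psme4, with differences between -0.06 and 0.14.

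Other genes of the pathway were listed by function, and none passed adjustment in limma. Over both injections, 62.2% of all genes tested were lower in low protein offspring. All 3 immunoproteasome subunits, the inducible counterparts of the protease subunits, had a lower mean in low protein offspring over both injections. Psmb10, the counterpart of Psmb7, differed by -0.50 ± 0.11 (SE; limma, Benjamini-Hochberg adjusted p = 0.0624), and Psmb8 and Psmb9 by -0.14 and -0.12. The 5 core assembly chaperones were lower too, with Pomp at -0.24 and Psmg3 at -0.14. Of 6 receptors, deubiquitinases and other proteins at the particle, 5 were lower, led by Txnl1, a thioredoxin-like protein of the regulatory particle (-0.48 ± 0.12 SE; limma, Benjamini-Hochberg adjusted p = 0.0825), and the small lid subunit Sem1 (-0.40 ± 0.11).

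Among genes for transcription and nuclear import of the proteasome, 5 of 5 were lower over both injections, where 62.2% of all genes were. Nfe2l2, a factor of the antioxidant response, differed by -0.32 ± 0.11 over both injections, by -0.67 in sham animals and by 0.03 after STZ. Ngly1, which deglycosylates Nfe2l1, differed by -0.30, and Nfe2l1 itself, the factor known for inducing proteasome genes when the proteasome is inhibited, by -0.02. The 4 shuttle factors, which carry ubiquitinated proteins to the particle, were lower over both injections, led by Rad23b and Ubqln2 at -0.14 and -0.09. In sham animals 1 of the 4 was lower and 3 were higher, with a median of 0.02. Of 14 genes of degradation from the endoplasmic reticulum, 11 were lower, with Herpud1 at -0.44 and Ufd1 at -0.26. Of the ubiquitin genes and activating enzymes listed, Uba6 alone could be tested, and it differed by 0.04.

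The cell types of the samples were read from marker genes. Acinar markers, such as the elastase Cela1 and the carboxypeptidase Cpa1, were far above the limit for dim signal on every array. The mean log2 signal over the 13 of 16 acinar markers tested was 15.24 to 15.44 on control arrays and 14.61 to 15.14 on low protein arrays, so the diets did not overlap. All 13 were lower in low protein offspring (62.2% of all genes), 12 without overlap (2.47% of all genes). Their median difference was -0.38, and low protein STZ 1 was again the lowest array. The 6 endothelial markers tested were lower as well, with a median of -0.18. The 6 β-cell markers tested had a median of -0.35. It was -0.66 in sham animals (5 of 6 lower, 57.7% of all genes) and -0.03 after STZ (3 of 6 lower, 62.3% of all genes). For STZ against sham in control offspring their median was -1.01 (5 of 6 lower, 49.3% of all genes). Over both injections the 4 markers of other islet cells had a median diet difference of -0.33 (4 lower). The 8 stromal markers had -0.13 (7 lower) and the 4 duct markers -0.03 (2 lower). The 8 lymphocyte and 5 macrophage markers tested had medians of -0.03 and -0.05. The part of these cell types in the proteasome differences was not tested. The 3′ minus 5′ signal of control transcripts, a sign of RNA degradation, was 1.08 to 1.93 on control arrays and 1.22 to 1.91 on low protein arrays, and with it as a covariate the members' median was -0.24.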

How the data were processed

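The deposited values are the authors' log2 signals per probe set for 11 arrays of mouse pancreas RNA. Per the submitters' processing notes the tools were RMA and Partek 6.5, with no step assigned to either, and the genome build was not given in the sources used here. Of 45101 probe sets, 34958 carry 1 gene symbol in the platform annotation, 932 several and 9211 none. Each gene was read from its probe set with the highest mean, and 2297 of 18194 genes with a mean at or under 6.87, the 0.25 quantile of probe set means, were left out as dim, which left 15897. All 11 arrays entered 1 model of 4 group means in limma 3.58.1 (R 4.3.3), two-sided, with Benjamini-Hochberg adjustment over all genes and a threshold of 0.05. A difference over both injections or diets is the mean of the differences within them. The number of arrays limits the precision. Tables were made with Python 3.11.15 and pandas 2.3.3, and the fit was tested on simulated data.

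The members and lists were chosen with earlier results of these data known. Named in each comparison were the 4 members with the smallest p in each direction, Psmb5, Psmb6 and Psmb7, and from each other list of the pathway up to 2 genes with the smallest p. Other members, the remaining pathway genes and the marker examples were added so that every member is accounted for. Alternatives were a replicate block, only the groups compared, trend and robust moderation, array weights, cyclic loess, no filter on dim genes, the mean of all probe sets, an RNA integrity covariate, subunits of the particle only, a 1.5-fold rule and each array left out. Leaving out control STZ 1 with low protein STZ 1, and cyclic loess for the genes of equal signal, were added after seeing the data.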

Additional observations from a re-analysis of the deposited data

How the results depend on the processing

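No member passed adjustment in the reported fit. Array weights called 5 members (12.2%) in low protein over both injections, among them Psmd6, Psmb4 and Psma7, and 5.01% of all genes. With control STZ 1 and low protein STZ 1 both left out, 2 members (4.88%) were called in low protein sham (Psmd6 and Psma7) and 0.604% of all genes, the members' median was -0.024 for low protein after STZ and 0.11 for the difference of STZ effects. Calling by at least 1.5-fold and p under 0.05 without adjustment gave 3 members (7.32%) in low protein sham and 1.25% of all genes. With 1 array left out, 0 to 1 members were called in low protein sham (1, Psmd6, without low protein STZ 1, with 0.793% of all genes) and 0 to 4 over both injections (1, Psmd6, without low protein STZ 1, with 1.01% of all genes, and 4 without low protein STZ 3, with 2.89%). Medians then ran from -0.070 to 0.15 for STZ in the control diet, from -0.47 to -0.15 for low protein after STZ and from -0.17 to 0.062 for the difference of effects. The largest shifts came without control STZ 3, control STZ 1 or low protein STZ 1. The causes were not tested.

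Of 673 values of named genes under the other alternatives, 647 kept direction and side of the threshold, 5 passed it and 21 reversed. Members lower at an unadjusted p under 0.05 in low protein sham numbered 6 as reported (7.22% of all genes), 14 with array weights (11%) and 13 with both arrays out (7.88%), and after STZ 12 as reported (7.79%) and 5 with cyclic loess (4.06%). With both arrays out, STZ in the control diet became -0.070 for Psmb5 and -0.21 for Psmb6, STZ in the low protein diet 0.11 for Psmb6 and 0.18 for Psmb7, low protein after STZ -0.039 for Psmc1 and -0.019 for Psma8, and the difference of effects 0.013 for Psmb5, 0.32 for Psmb6 and 0.049 for Psmb7. Array weights gave Psmb6 -0.023 and 0.094 for STZ in the control and low protein diets, 0.036 over both diets and 0.12 for the difference, Psmb7 0.20 for STZ in the low protein diet, and Psmb11 -0.042 for low protein after STZ. Cyclic loess gave Psmb7 0.037 for STZ in the low protein diet, and Psmb5 0.000730 and Psmb6 0.016 for STZ over both diets. The RNA integrity covariate gave Psmd7 -0.042 in low protein sham and Psmc3ip -0.015 over both injections, and the mean of all probe sets gave Psmc3ip -0.030.

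With 1 array left out, 765 values kept direction and side, 4 passed the threshold and 23 reversed. Ranges of those that reversed were, for STZ in the control diet, -0.070 to 0.35 (Psmb5) and -0.21 to 0.31 (Psmb6), for STZ in the low protein diet -0.18 to 0.11 (Psmb6) and -0.17 to 0.18 (Psmb7), and for STZ over both diets -0.15 to 0.058 (Psmb5) and -0.14 to 0.12 (Psmb6). For low protein sham they were -0.0045 to 0.17 (Psmd3) and -0.24 to 0.018 (Psmb7), for low protein after STZ -0.072 to 0.068 (Psmb11), for low protein over both injections -0.037 to 0.028 (Psmc3ip), and for the difference of effects -0.37 to 0.15 (Psmb6).

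The replicate numbers gave no clear sign of pairing. Of 15 same-numbered pairs, 5 had deviations correlated over 0.1, with r from -0.32 to 0.26, against -0.45 to 0.39 for other pairs. These correlations cannot settle whether arrays were paired, because deviations from means of 2 or 3 arrays are tied to each other. With the replicate block, 0 members were called, and over both injections the median was -0.22, with 11 members lower at an unadjusted p under 0.05 (10.3% of all genes) where 19 were without it (11.7%). Groups of 2 or 3 arrays limit what the tests can call.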
